A study of Mus musculus with 35 samples.

Results

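The 10 genes of the immediate early response were described across the lungs of mice that differed in sex, in caveolin-1 genotype and in the oxygen they breathed. The 10 genes were Fos, Fosb, Jun, Junb, Egr1, Egr2, Egr3, Ier2, Atf3 and Nr4a1. They were taken by symbol from the 54532 genes of the count table, each matched 1 row, and all 10 passed the low-count filter in every comparison. Whole-lung RNA from adult mice was sequenced in 34 libraries that fell into 12 groups, 3 libraries a group, save for 2 in each of the normoxic female Cav1-KO and Cav1-RC groups. The study compared these groups to ask how caveolin-1, and endothelial caveolin-1 in particular, bears on the lung's response to long-lasting hypoxia in each sex.

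Control mice were B6/129SJ2 wild types. Cav1-KO mice carried the Cav1(tm1Mls/)J allele and lacked caveolin-1, the coat protein of caveolae, in every tissue. Cav1-RC mice had the same knockout background with caveolin-1 put back in endothelial cells, and the promoter that drives it was not given in the sources used here. Each genotype was kept for 6 weeks in normoxia or in hypoxia of 10% oxygen. The deposited values come from whole lung, so fewer cells of a type and less RNA per cell cannot be told apart in any result that follows.

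Immediate early genes are transcribed within minutes of a stimulus, such as a growth factor, stretch, calcium entry or tissue handling, without new protein having to be made first. Kinases of the MAPK family act on factors already bound at these genes, among them serum response factor with its ELK partners and CREB, and the transcripts decay again quickly. Most of the products are transcription factors themselves. FOS and JUN family proteins pair to form AP-1, EGR proteins are zinc-finger factors, ATF3 is a stress-induced bZIP factor, NR4A1 is an orphan nuclear receptor and IER2 is a small nuclear protein.

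The libraries held 12425535 to 33343006 counts. Cav1 itself lay at 989 to 1356 CPM (counts scaled to library size with edgeR's TMM factors) in the 12 Control libraries, at 1.61 to 4.0 in the 11 Cav1-KO libraries and at 1.48 to 6.56 in the 11 Cav1-RC libraries, so the reconstituted caveolin-1 was not seen in the count of this gene. Alveolar type 2 markers, which define lung, summed to 13038 to 34037 CPM in every library. For 12 of the 34 libraries, the number in the library name matched a mouse on a list of animals used for western blots in the study's supplementary material. The labels do not state this link, and being on the list means such a match below. Condition and list cannot be told apart in several comparisons. Mitochondrial transcripts took 3.36 to 5.33% of counts in the listed libraries and 1.22 to 2.65% in the other 22. Xist and Y chromosome genes went against the label in 3 libraries labelled male, namely Male Control Hypoxia replicate 2 and Male Cav1-RC Normoxia replicates 1 and 2. Female Cav1-KO Hypoxia replicate 2 also held some Y chromosome signal, with Ddx3y at 7.86 CPM. Nothing in the labels says whether littermates were shared, so the p-values measure the spread between these libraries.

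Promoters are shown for members that moved together in male Cav1-RC lungs (Fos, Fosb, Junb and Nr4a1) and for Egr2. Egr2 did not pass the test there and, among the members with a window, is the one whose windows hold a CArG box. RefSeq windows on GRCm38.p6, the assembly behind mm10, were found for 7 of the 10 members (11 windows, since Egr2 has several starts), and the 250 bases before each start were searched. The 150 bases nearest the start are printed 5′ to 3′ on the strand of the gene, with matched motifs in capitals. They come from chr12:85473740-85473889 (plus strand) for Fos, chr7:19310046-19310195 (minus strand) for Fosb, chr8:84978749-84978898 (minus strand) for Junb, chr15:101266696-101266845 (plus strand) for Nr4a1 and chr10:67537719-67537868 (plus strand) for Egr2. Capitals mark the letters TGACG on either strand (the start of a CREB or ATF element), TATAAA in Fos, GCGGGGGCG on either strand in Fosb and Nr4a1 (a form of the EGR element), and in Egr2 the CArG box, the element of serum response factor.
Fos: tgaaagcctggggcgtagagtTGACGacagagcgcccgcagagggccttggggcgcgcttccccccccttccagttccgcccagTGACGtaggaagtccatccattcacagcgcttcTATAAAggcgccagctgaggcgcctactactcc
Fosb: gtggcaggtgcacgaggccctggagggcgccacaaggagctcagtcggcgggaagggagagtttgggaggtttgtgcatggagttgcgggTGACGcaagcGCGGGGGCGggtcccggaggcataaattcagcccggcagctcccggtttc
Junb: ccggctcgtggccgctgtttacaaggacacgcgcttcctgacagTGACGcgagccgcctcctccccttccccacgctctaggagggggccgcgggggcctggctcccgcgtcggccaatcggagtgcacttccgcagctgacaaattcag
Nr4a1: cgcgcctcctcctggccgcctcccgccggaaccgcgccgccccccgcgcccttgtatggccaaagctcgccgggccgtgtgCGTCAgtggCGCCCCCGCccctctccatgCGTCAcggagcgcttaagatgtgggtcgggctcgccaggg
Egr2: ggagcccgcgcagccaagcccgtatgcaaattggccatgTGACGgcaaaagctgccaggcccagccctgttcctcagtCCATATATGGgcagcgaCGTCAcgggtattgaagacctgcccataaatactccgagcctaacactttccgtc

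Fos, Fosb, Junb, Nr4a1, Egr2 and Atf3 held TGACG, a motif added to the search after the sequences had been seen, as did 17.8% of all 32851 RefSeq windows of this length. In Fos, copies lay 66 to 62 and 129 to 125 bases before the start, with TATAAA 33 to 28 bases before it. TATAAA was present in 12.4% of all windows. The CArG box occurred in 1.47% of windows, and among the 7 members with a window only in those of Egr2. Egr1, Egr3 and Ier2 had no window and were not searched. Bases further than 250 from a start were not searched for any member. GCGGGGGCG occurred in 2.57% of windows. The full element TGACGTCA, which contains TGACG, was in 1.55% of windows, the AP-1 element TGACTCA in 4.46% and GCGTGGGCG in 0.536%, and none of the 3 matched in a member's window. ACGTG, the core of the hypoxia response element, was in 16.6% of windows and in 1 window of Egr2. These matches describe letters in a window and no binding was measured.

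Per length of transcript, the members spanned a wide range of levels. Median FPKM (fragments scaled to gene length and library size) over the 34 libraries was 98.9 for Jun, 66.7 for Ier2 and 56.9 for Junb. Nr4a1, Egr1 and Fos lay close together at 14.2, 13.5 and 13.5 FPKM. Atf3 followed at 6.07, and Egr2, Fosb and Egr3 were lowest at 1.86, 1.36 and 1.34. The order was firm at some steps and not at others. Junb was above Nr4a1 in 34 of 34 libraries and Atf3 was above Egr2 in 34 of 34, whereas Egr1 was above Fos in only 13 of 34 and Fosb above Egr3 in 17 of 34.

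In mm10 coordinates, the AP-1 genes were Fos (ENSMUSG00000021250, chr12:85473890-85477273, plus strand), Fosb (ENSMUSG00000003545, chr7:19302696-19310051, minus strand), Jun (ENSMUSG00000052684, chr4:95049034-95052222, minus strand) and Junb (ENSMUSG00000052837, chr8:84974484-84978718, minus strand). The zinc-finger genes were Egr1 (ENSMUSG00000038418, chr18:34859823-34864984, plus strand), Egr2 (ENSMUSG00000037868, chr10:67535475-67542188, plus strand) and Egr3 (ENSMUSG00000033730, chr14:70077203-70082614, plus strand). The remaining members were Ier2 (ENSMUSG00000053560, chr8:84661331-84662852, minus strand), Atf3 (ENSMUSG00000026628, chr1:191170296-191218039, minus strand) and Nr4a1 (ENSMUSG00000023034, chr15:101254269-101274795, plus strand).

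**Figure D1:**
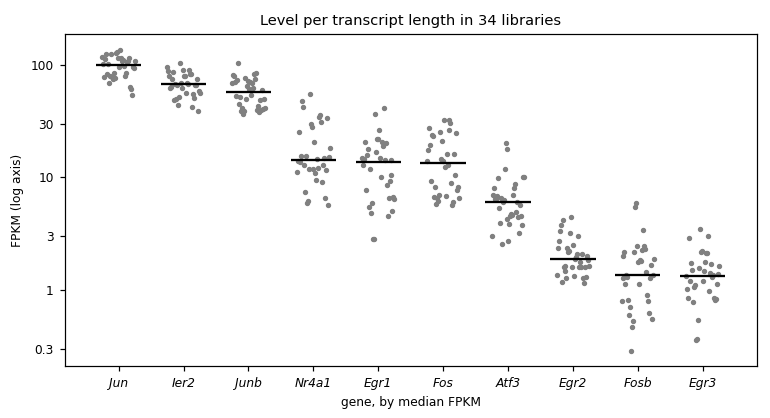
FPKM of the 10 members in the 34 grouped libraries, on a log axis, in order of their medians. Jun, Ier2 and Junb lie highest, and Egr2, Fosb and Egr3 lowest with medians from 1.34 to 1.86 FPKM.

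The least abundant members were not simply the most variable. The highest library was 19.8 times the lowest for Fosb, 15.0 times for Egr1, 9.75 times for Nr4a1 and 9.27 times for Egr3. Jun, Ier2 and Junb moved least, with 2.56, 2.66 and 2.83 times between the extremes. Within groups, Nr4a1 had a spread (SD of log2 CPM) at the 85.2 percentile of all genes tested and Egr1 at the 80.3 percentile, while Jun was at the 31.7 percentile. Replicates of a group thus differed more for Nr4a1 and Egr1 than for most genes.

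Across the 12 groups, mean CPM was lowest in Female Control Hypoxia for 6 of the 10 members, namely Fos, Fosb, Junb, Egr1, Egr3 and Nr4a1. It was highest in Female Control Normoxia for Fosb, Egr3, Atf3 and Nr4a1, and highest in Male Cav1-RC Hypoxia for Fos, Junb and Egr1. The libraries of the highest and of the lowest group did not overlap for any member. Neighbouring groups in the order mostly did, in 8 to 11 of 11 neighbour pairs depending on the gene.

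**Figure D2:**
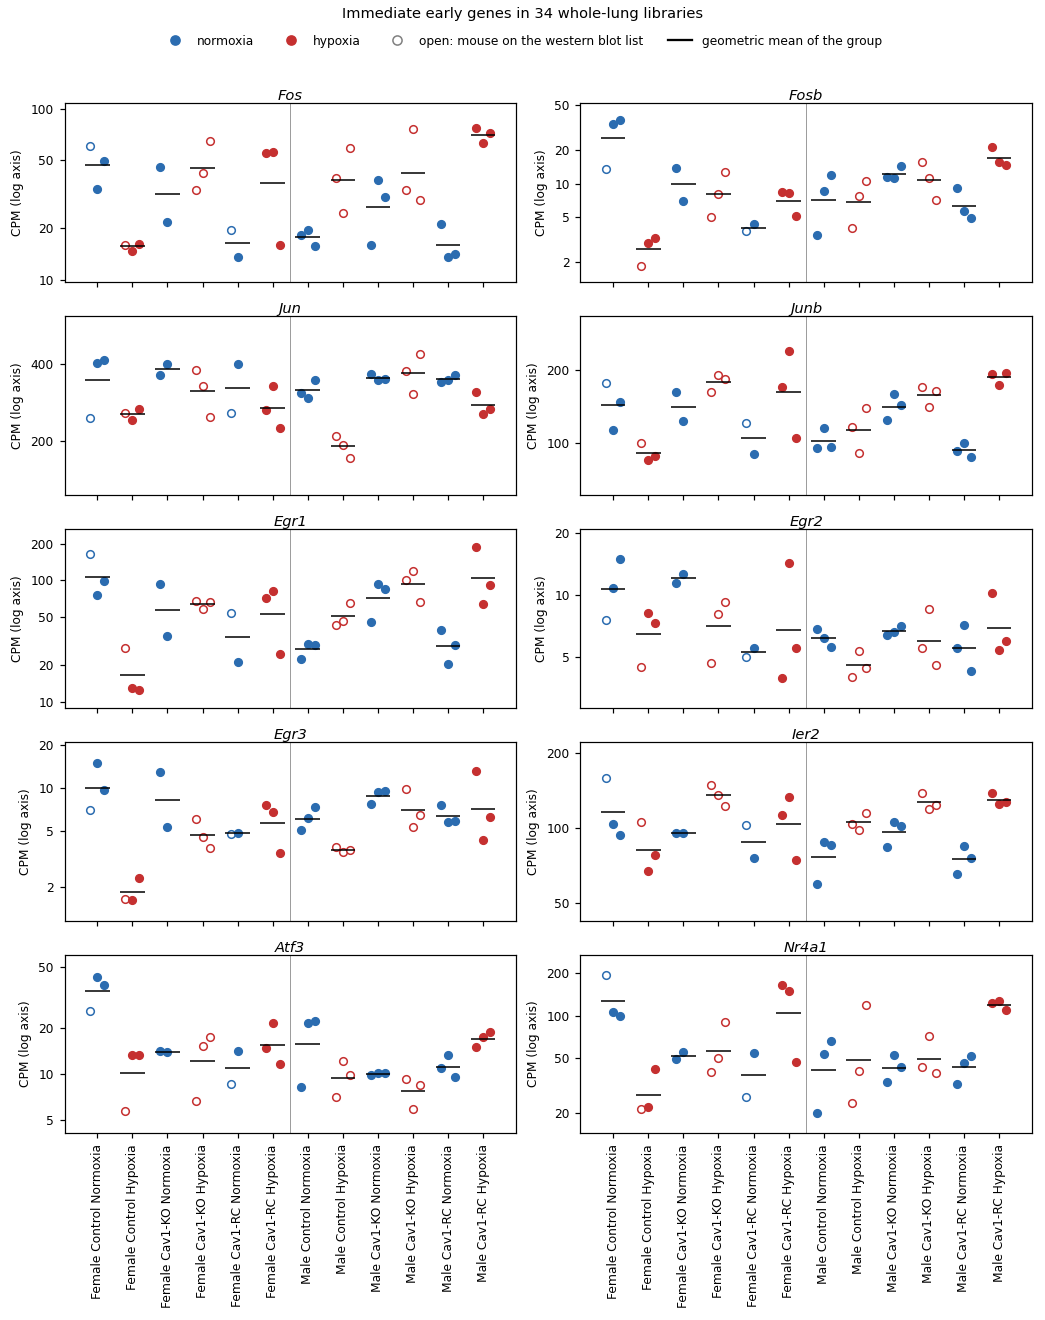
CPM of each member in every library of the 12 groups (log axis), with open circles for mice on the western blot list and short lines for the geometric mean of a group. Female Control Hypoxia libraries are the 3 lowest of all for Fosb and Egr3, and Male Cav1-RC Hypoxia libraries near the top for Fos.

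In male Cav1-RC lungs, 5 of the 10 members were called higher in hypoxia than in normoxia. Fos, the FOS subunit of AP-1, had 21.1, 13.5 and 14.1 CPM in normoxia and 76.8, 62.8 and 71.7 CPM in hypoxia. Every hypoxic library was at least as high as 62.8 CPM and no normoxic one passed 21.1, so the groups were far apart. On the log2 scale the difference was 2.12 (SE 0.16, adjusted p = 0.000629, edgeR's quasi-likelihood test with Benjamini-Hochberg adjustment), a 4.35-fold rise. Nr4a1 rose from 32.5, 45.7 and 51.4 CPM to 122, 126 and 109 CPM, again without overlap (log2 fold change 1.48, SE 0.15, adjusted p = 0.00226). For Junb, an AP-1 partner of FOS, the libraries went from 92.1, 99.6 and 87.3 CPM to 192, 174 and 195 CPM (1.02, SE 0.08, adjusted p = 0.000664). Both sets of 3 were tight for Junb, and its fold lay just past the 2-fold limit used for calling.

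Fosb and Egr1 completed the calls. Fosb had 9.05, 5.70 and 4.94 CPM in normoxia against 21.2, 15.4 and 14.5 CPM in hypoxia (log2 fold change 1.38, SE 0.23, adjusted p = 0.0127). Egr1 had 38.8, 20.3 and 29.5 CPM against 188, 64.2 and 91.5 CPM (1.96, SE 0.37, adjusted p = 0.0174). Hypoxic replicate 1 was far above the other hypoxic libraries for Egr1, yet the lowest of these was still above every normoxic library. In all, 5 of the 10 members were called higher (absolute log2 fold change above 1 and adjusted p under 0.05) and 0 lower, where 2.27% of the 17058 genes tested were called in either direction and 1.42% higher. Ier2 (0.80, SE 0.10, adjusted p = 0.00509) and Atf3 (0.61, SE 0.15, adjusted p = 0.0406) passed the p threshold below the 2-fold limit. Jun went the other way at -0.32 (SE 0.09, adjusted p = 0.0684), and Egr2 and Egr3 overlapped between the groups with 0.36 (SE 0.27) and 0.32 (SE 0.36). Groups did not overlap for 7 members that were higher, against 15.3% of all genes in that direction, and Jun was lower without overlap, as were 16.0% of genes. The median over the 10 members was 0.91, beside 0.00 over all genes. In 1 fit over all 34 libraries Fos alone was called (0.317% of all genes), and with a term for the western blot list Fos and Egr1 were (0.805%).

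None of the 6 male Cav1-RC libraries was on the western blot list. Markers of several other cell types moved with the groups. Summed macrophage markers were 345 to 537 CPM in normoxia against 158 to 313 in hypoxia, erythroid markers 2563 to 4639 against 388 to 830.2, B cell markers 99.9 to 113 against 62.7 to 72.8 and T cell markers 37.4 to 42.3 against 31.7 to 34.7. Adipocyte markers were 39.4 to 48 CPM in normoxia against 68.2 to 129 in hypoxia and skeletal muscle markers 10.2 to 18.1 against 19.8 to 27.2. Neutrophil markers, at 122 to 129 against 106, 372 and 414 CPM, overlapped. The part of these cell types in the result was not tested. Because Xist and Y chromosome genes of normoxic replicates 1 and 2 went against the label, the comparison was also run without them, with 1 normoxic library left that is assumed to vary like the rest. Fos (log2 fold change 2.32, adjusted p = 0.00354), Junb (1.10, adjusted p = 0.0389) and Nr4a1 (1.21, adjusted p = 0.0284) were then still called, among 0.211% of 18010 genes, while Egr1 (1.95, adjusted p = 0.274) and Fosb (1.78, adjusted p = 0.0825) were not. Without normoxic replicate 2 alone, 3 members were called (Fos, Junb and Nr4a1), among 1.31% of all genes. Without Hypoxia replicate 3 or without Normoxia replicate 3, the other 4 were called and Junb was not, at a log2 fold change down to 0.98, among 1.48% and 2.11% of all genes.

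Female Control Hypoxia was the group with the lowest mean of the 12 for 6 of the 10 members. Fosb had 13.5, 33.9 and 36.8 CPM in normoxia and 1.86, 2.94 and 3.31 CPM in hypoxia. Egr1 had 164, 74.9 and 98.7 CPM against 27.6, 13.0 and 12.5 CPM, and Egr3 had 6.99, 15.1 and 9.63 CPM against 1.65, 1.63 and 2.34 CPM. For each of these genes even the highest hypoxic library was well below the lowest normoxic one.

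The other members had smaller or less even differences. Nr4a1 had 195, 105 and 98.5 CPM in normoxia and 21.5, 22 and 41.7 CPM in hypoxia. Fos had 60.2, 34.1 and 49.4 CPM against 16.0, 14.8 and 16.2 CPM, and Atf3 had 25.6, 43.0 and 38.3 CPM against 5.70, 13.3 and 13.4 CPM. The hypoxic libraries of Fos were nearly equal, and those of Nr4a1 and Atf3 each held 1 library apart from the rest. Junb did not overlap either, whereas Jun, Egr2 and Ier2 did.

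None of these differences was called by edgeR's quasi-likelihood test, in which 3 of 17136 genes (0.0175%) were called. The log2 fold changes were -3.43 for Fosb (SE 0.45, adjusted p = 0.184), -2.71 for Egr1 (SE 0.42, adjusted p = 0.226) and -2.54 for Egr3 (SE 0.38, adjusted p = 0.223). Those of Nr4a1, Atf3 and Fos were -2.27 (SE 0.39, adjusted p = 0.264), -1.77 (SE 0.38, adjusted p = 0.441) and -1.66 (SE 0.24, adjusted p = 0.223). At an unadjusted p under 0.05 the test held 7 of the 10 members (4.79% of all genes), and DESeq2's Wald test called 6 members among 0.613% of all genes. All 10 members were below 0, with a median of -1.71 beside -0.02 over all genes. For 7 members the groups did not overlap with hypoxia lower, a pattern seen in 4.03% of all genes.

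One library in each of these female Control groups, replicate 1, came from a mouse on the western blot list and differed from the other libraries of its group in mitochondrial share. A fit without both, chosen after seeing the data, left 2 libraries against 2 and called 1421 of 16777 genes (8.47%). It called Fosb (-3.56, adjusted p = 0.00154), Egr1 (-2.81, adjusted p = 0.00188), Egr3 (-2.71, adjusted p = 0.00546), Nr4a1 (-1.73, adjusted p = 0.0105), Atf3 (-1.66, adjusted p = 0.00315) and Fos (-1.48, adjusted p = 0.00687), all lower in hypoxia. Macrophage markers summed to 2691 and 1706 CPM in the hypoxic libraries of this fit and to 258 and 356 CPM in the normoxic ones, and their part in the result was not tested.

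In male Control lungs 1 member was called. Fos had 18.3, 19.4 and 15.7 CPM in normoxia and 39.3, 24.4 and 59.0 CPM in hypoxia, and it was the 1 member called (log2 fold change 1.21, SE 0.28, adjusted p = 0.0305) where 6.36% of 17853 genes were, 2.44% higher. Egr1 went from 22.7, 30.1 and 29.3 CPM to 42.8, 46.2 and 65.1 CPM without overlap (0.92, SE 0.19, adjusted p = 0.0227), under the 2-fold limit, but had the opposite sign, at -0.15 (adjusted p = 0.902), in a fit over 34 libraries with a term for the list, in which 0 members and 1.71% of all genes were called. Jun, which encodes a partner of FOS in AP-1, had 309, 296 and 347 CPM in normoxia and a lower 210.2, 193 and 172 CPM in hypoxia (-0.72, SE 0.12, adjusted p = 0.0144). Hypoxia was higher without overlap for 3 members (20.7% of all genes) and lower without overlap for 3 (21.3%). All 3 hypoxic libraries and none of the normoxic ones were on the western blot list, so hypoxia and list cannot be told apart here. The call of Fos was lost in 5 of the 6 fits that left out 1 library (log2 fold change 0.85 to 1.47, adjusted p up to 0.0941) and stayed only without Hypoxia replicate 2. Egr1 alone was called without Hypoxia replicate 1 (1.74% of all genes) and Atf3 alone without Normoxia replicate 1 (3.66%), and 0 members were called without Hypoxia replicate 3, Normoxia replicate 2 or Normoxia replicate 3. Cardiac markers summed to 128.6 to 182 CPM in hypoxia against 588 to 1327 in normoxia, neutrophil markers to 106 to 154 against 39.6 to 42 and erythroid markers to 172 to 662 against 1434 to 1859, and their part in the result was not tested.

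The difference between the sexes in Control mice was tested itself. The female minus the male change with hypoxia was -3.60 for Egr1 (SE 0.48) and -2.84 for Fos (SE 0.40), both at an adjusted p = 0.13 in edgeR, and -3.31 for Fosb (SE 0.72) and -2.65 for Nr4a1 (SE 0.82), both at 0.282. Of 18561 genes 0 were called, 7 of the 10 members had an unadjusted p under 0.05 (17.6% of all genes), and DESeq2 called Egr1, Egr3, Fos and Fosb among 0.323% of genes. Without Female Control Hypoxia replicate 1 the edgeR test called 6 members among 19.0% of genes, and without Male Control Hypoxia replicate 2, the library whose sex genes went against its label, it called Egr1 and Fos among 0.376%. Hypoxia and list coincide in the male groups, so this difference and the list cannot be told apart either.

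In Cav1-KO lungs few members passed any test of hypoxia against normoxia. In female Cav1-KO mice Fos had 45.8 and 21.8 CPM in normoxia and 33.7, 41.9 and 64.7 CPM in hypoxia, and in males 16.0, 38.4 and 30.6 CPM against 33.7, 75.7 and 29.3 CPM. The groups overlapped in both sexes. By edgeR's test 0 of 10 members were called in each sex, although 13.3% of 17708 genes in females and 17.7% of 17297 genes in males were called. The unadjusted p was under 0.05 for 3 members in females (48.7% of all genes) and 1 in males (60.5% of all genes), and DESeq2 called 0 in each. Ier2 alone passed the p threshold, at 0.48 (SE 0.10, adjusted p = 0.0106) in females and 0.36 (SE 0.10, adjusted p = 0.0148) in males, below the 2-fold limit. Groups did not overlap for 2 members higher (33.6% of all genes) and 1 lower (30.5%) in females, and for 1 higher (32.5%) and 1 lower (31.5%) in males. Club markers in females summed to 38435 to 60824 CPM in hypoxia against 14587 to 16131 in normoxia. In males they summed to 51797 to 59433 against 17264 to 18581. Fibroblast markers summed to 938 to 1221 against 1481 to 1738 in females and to 639 to 1011 against 1686 to 1812 in males. Their part in the result was not tested. All hypoxic and no normoxic Cav1-KO libraries were on the list. Hypoxia and list cannot be told apart here. A term for the list rests on the groups that held libraries of both kinds, and none of these was Cav1-KO. With this term in the fit the Ier2 change had the opposite sign in both sexes and did not pass the p threshold. Those values are given in the section on processing, and the cause was not tested. Without Female Cav1-KO Normoxia replicate 2, which leaves 1 normoxic library, assumed to vary like the hypoxic ones, Egr3 alone was called among 7.51% of all genes.

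In female Cav1-RC lungs the hypoxic libraries were uneven. Nr4a1 had 26.3 and 53.7 CPM in normoxia and 166, 151 and 46.2 CPM in hypoxia, and Fos had 19.6 and 13.5 CPM against 55.4, 55.8 and 16.0 CPM. Hypoxic replicate 3 stayed within the normoxic range for both genes while the other hypoxic libraries were well above it. The log2 fold changes of 1.58 for Nr4a1 (SE 0.55, adjusted p = 0.826) and 1.34 for Fos (SE 0.52, adjusted p = 0.91) were not called, 9 members were above 0, and edgeR called 0 members and 0.0285% of 17566 genes. Unadjusted, 2 members had a p under 0.05 (5.20% of all genes), and DESeq2 called 0. Only Fosb had groups that did not overlap, with hypoxia higher (10.2% of all genes). The female minus male difference of the hypoxia change was not called for any member in Cav1-RC or in Cav1-KO mice. By edgeR 0 of 18211 and 0 of 18487 genes were called, with 0 members at an unadjusted p under 0.05 in each, and DESeq2 called 0. Male Cav1-RC Normoxia replicates 1 and 2 had sex genes against their label, so the Cav1-RC difference cannot decide whether the sexes differ.

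**Figure D3:**
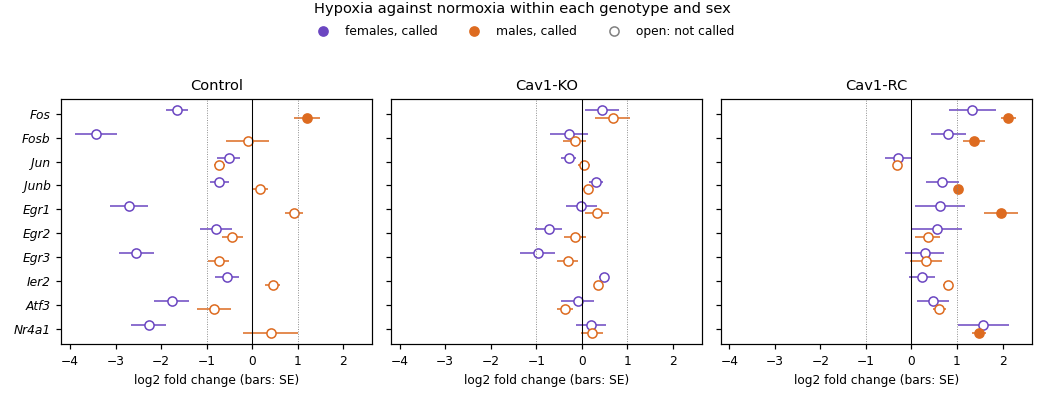
Log2 fold change of hypoxia against normoxia for the 10 members in each sex and genotype, with standard errors derived from edgeR's F statistic. Male Cav1-RC has 5 members called higher, from 1.02 for Junb to 2.12 for Fos, and Female Control has all 10 members below 0 without a call.

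Genotype comparisons within 1 oxygen level used some of the same libraries as the hypoxia comparisons, so the values of both are not independent. Cav1-KO against Control and Cav1-RC against Cav1-KO likewise share the Cav1-KO libraries. In hypoxic females, Fos was the 1 member called higher in Cav1-KO than in Control lungs, and Junb passed the p threshold alone. Fos had 33.7, 41.9 and 64.7 CPM in Cav1-KO against 16.0, 14.8 and 16.2 CPM in Control, and it was called (log2 fold change 1.58, SE 0.25, adjusted p = 0.0472) in a comparison that called 0.768% of 17699 genes and 0.311% higher. Junb, with 163, 191 and 184 CPM against 99.8, 84.7 and 88.1 CPM, passed the p threshold just under the 2-fold limit (0.97, SE 0.14, adjusted p = 0.0341). Egr1, with 67.8, 58.4 and 66.5 CPM against 27.6, 13.0 and 12.5 CPM, had 1.85 (SE 0.30, adjusted p = 0.0501). Its Cav1-KO libraries were close together and well above the highest Control library, yet the adjusted p was on the other side of the threshold. All 10 members were above 0, with a median of 1.02 beside 0.02 over all genes, and 6 did not overlap with Cav1-KO higher (15.5% of all genes).

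All 3 of these Cav1-KO libraries and 1 of the Control libraries were on the western blot list. Without that Control library, replicate 1, edgeR called 5 members (Egr1, Egr3, Fos, Fosb and Junb) among 23.9% of all genes. Leaving out any other library of the comparison left 0 called. Smooth muscle markers summed to 298 to 451 CPM in Cav1-KO against 559.9 to 608 in Control and alveolar type 2 markers to 16459 to 21424 against 21734 to 34037, and their part in the result was not tested.

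In hypoxic males, where every library of both groups was on the list, 0 of 10 members were called by edgeR or DESeq2, with 0.929% of 17759 genes called by edgeR and 5 members at an unadjusted p under 0.05 (19.5% of all genes). Jun was higher in Cav1-KO, with 375, 306 and 440.3 CPM against 210.2, 193 and 172 CPM in Control (0.94, SE 0.15, adjusted p = 0.0305), just below the 2-fold limit. Egr1 had 101, 119 and 66.6 CPM against 42.8, 46.2 and 65.1 CPM (0.87, SE 0.23, adjusted p = 0.104). The groups did not overlap for either, nor for Junb, Ier2 and Egr3, and 5 members with Cav1-KO higher compare with 13.4% of all genes. Without Male Cav1-KO Hypoxia replicate 2, Jun was called among 1.61% of all genes. Alveolar type 2 markers summed to 13038 to 14387 CPM in Cav1-KO against 21462 to 23909.7 in Control, smooth muscle markers to 314 to 521 against 577 to 797, erythroid markers to 1602 to 21191 against 172 to 662 and T cell markers to 16.3 to 21.8 against 30.8 to 52.5, and their part in the result was not tested.

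In normoxic males, where no library was on the list, Egr1 was the 1 member called. It had 45.1, 93.6 and 84.9 CPM in Cav1-KO against 22.7, 30.1 and 29.3 CPM in Control (1.46, SE 0.25, adjusted p = 0.0115), where 5.0% of 17439 genes were called, 1.26% higher. Junb had 124, 159.5 and 143 CPM against 94.7, 115 and 96.2 CPM (0.49, SE 0.12, adjusted p = 0.0415), without overlap and under the 2-fold limit. With Jun and Egr3, 4 members did not overlap with Cav1-KO higher (16.3% of all genes). Without Cav1-KO replicate 2 or 3, 0 members were called (2.29% and 2.19% of all genes), and without Control replicate 1 both Atf3 and Egr1 were (9.75%). In 1 fit over 34 libraries 0 were called (3.26% of all genes). Club markers summed to 17264 to 18581 CPM in Cav1-KO against 21257 to 48826 in Control, endothelial markers to 3615 to 3865 against 2568 to 3064, and T cell markers to 17.8 to 23 against 38.7 to 63.7, and their part in the result was not tested.

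Normoxic females pointed the other way for some members. Atf3 had 14 and 13.8 CPM in Cav1-KO against 25.6, 43.0 and 38.3 CPM in Control (-1.37, SE 0.27, adjusted p = 0.156), and Nr4a1 had 48.5 and 54.7 CPM against 195, 105 and 98.5 CPM (-1.38, SE 0.34, adjusted p = 0.205). Both were lower in Cav1-KO without overlap, as were 17.0% of all genes. By edgeR 0 members were called (0.122% of 17269 genes), 3 had an unadjusted p under 0.05 (11.5% of all genes), and DESeq2 called Atf3 and Nr4a1 among 3.13%. Without Female Control Normoxia replicate 1, the library on the list, edgeR called Atf3 and Fosb among 2.64% of all genes. In all libraries of these groups, club markers summed to 14587 to 16131 CPM in Cav1-KO against 22080.5 to 64712 in Control. Smooth muscle markers summed to 268 to 297 against 367 to 649, macrophage markers to 668 to 932 against 258 to 371 and T cell markers to 24 to 33 against 37.7 to 64.4. Their part in the result was not tested. The female minus male difference of the Cav1-KO effect was called for 0 members in normoxia (3 at an unadjusted p under 0.05, beside 3.51% of all genes) and 0 in hypoxia (4 at an unadjusted p under 0.05, beside 16.4% of all genes), and DESeq2 called 0 in both. In hypoxia, Egr1 and Ier2 were called without Female Control Hypoxia replicate 1, among 29.7% of all genes. Male Control Hypoxia replicate 2, whose sex genes went against its label, was part of the difference in hypoxia.

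Cav1-RC was then compared with Cav1-KO, which asks what putting caveolin-1 back in the endothelium goes with. In normoxic males Egr1 had 38.8, 20.3 and 29.5 CPM in Cav1-RC against 45.1, 93.6 and 84.9 CPM in Cav1-KO, and it was called lower (-1.33, SE 0.26, adjusted p = 0.00752) where 3.59% of 17143 genes were called, 1.32% lower. Junb had 92.1, 99.6 and 87.3 CPM against 124, 159.5 and 143 CPM (-0.62, SE 0.09, adjusted p = 0.00142), and Fosb had 9.05, 5.70 and 4.94 CPM against 11.4, 11.3 and 14.3 CPM (-0.90, SE 0.21, adjusted p = 0.0166). These groups did not overlap, and with Egr3 that made 4 members lower in Cav1-RC (14.1% of all genes). Ier2 passed the p threshold too (-0.37, SE 0.11, adjusted p = 0.0467). Without Cav1-RC replicates 1 and 2, whose sex genes went against the label, 1 Cav1-RC library was left, assumed to vary like the Cav1-KO libraries, and Egr1 and Fosb were called among 3.82% of all genes. In 1 fit over 34 libraries, with or without the list term, 0 members were called (1.81% and 1.37% of all genes). Leaving out Cav1-RC replicate 1 alone gave 3 calls (Egr1, Fos and Fosb) among 4.16% of all genes, and leaving out Cav1-KO replicate 1 gave Egr1 and Fos among 2.87%. Neutrophil markers summed to 122 to 129 CPM in Cav1-RC against 30.8 to 73.1 in Cav1-KO, B cell markers to 99.9 to 113 against 39.8 to 58.9, T cell markers to 37.4 to 42.3 against 17.8 to 23, erythroid markers to 2563 to 4639 against 1361 to 2031 and fibroblast markers to 1115 to 1513 against 1686 to 1812, and their part in the result was not tested.

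In hypoxic males Atf3 and Nr4a1 were called, both higher in Cav1-RC. Atf3 had 15.0, 17.4 and 18.8 CPM in Cav1-RC against 9.30, 5.86 and 8.38 CPM in Cav1-KO (1.10, SE 0.19, adjusted p = 0.00221), and Nr4a1 had 122, 126 and 109 CPM against 42.9, 71.8 and 38.6 CPM (1.22, SE 0.21, adjusted p = 0.00237). Neither overlapped, and 2 calls among 10 members stand beside 14.8% of 17171 genes, 8.16% higher. Jun was lower with overlapping groups (-0.44, SE 0.15, adjusted p = 0.041). With Junb, 3 members did not overlap with Cav1-RC higher, against 27.9% of all genes, so this share was close to that of all genes. The Cav1-KO libraries were all on the list and the Cav1-RC libraries were not, and genotype and list cannot be told apart. In 1 fit over 34 libraries Atf3 alone was called (13.0% of all genes), and with the list term 0 were (2.19%). Without Male Cav1-KO Hypoxia replicate 2, Atf3 fell under the 2-fold limit at 0.94, and Fos and Nr4a1 were called among 17.8% of all genes. Cardiac markers summed to 890.1 to 1047 CPM in Cav1-RC against 161 to 430.1 in Cav1-KO, club markers to 23202 to 36359 against 51797 to 59433 and erythroid markers to 388 to 830.2 against 1602 to 21191, and their part was not tested.

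In females edgeR called 0 members in either oxygen level. In normoxia all 10 were below 0 in Cav1-RC, 5 without overlap (21.3% of all genes), with 3 at an unadjusted p under 0.05 (8.73% of all genes) and 0.100% of 16981 genes called. Egr2 was among them, with 5.04 and 5.56 CPM in Cav1-RC against 11.5 and 12.7 CPM in Cav1-KO (-1.19, SE 0.28, adjusted p = 0.365). In hypoxia 0 members had an unadjusted p under 0.05 (37.7% of all genes) where 8.98% of 17681 genes were called. DESeq2 called 0 members in both. Without Female Cav1-RC Normoxia replicate 2, which leaves the 1 listed library of that group, assumed to vary like the Cav1-KO libraries, Egr2 and Fosb were called in normoxia among 16.2% of all genes, and without Female Cav1-RC Hypoxia replicate 3, Nr4a1 was called in hypoxia among 7.11%.

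**Figure D4:**
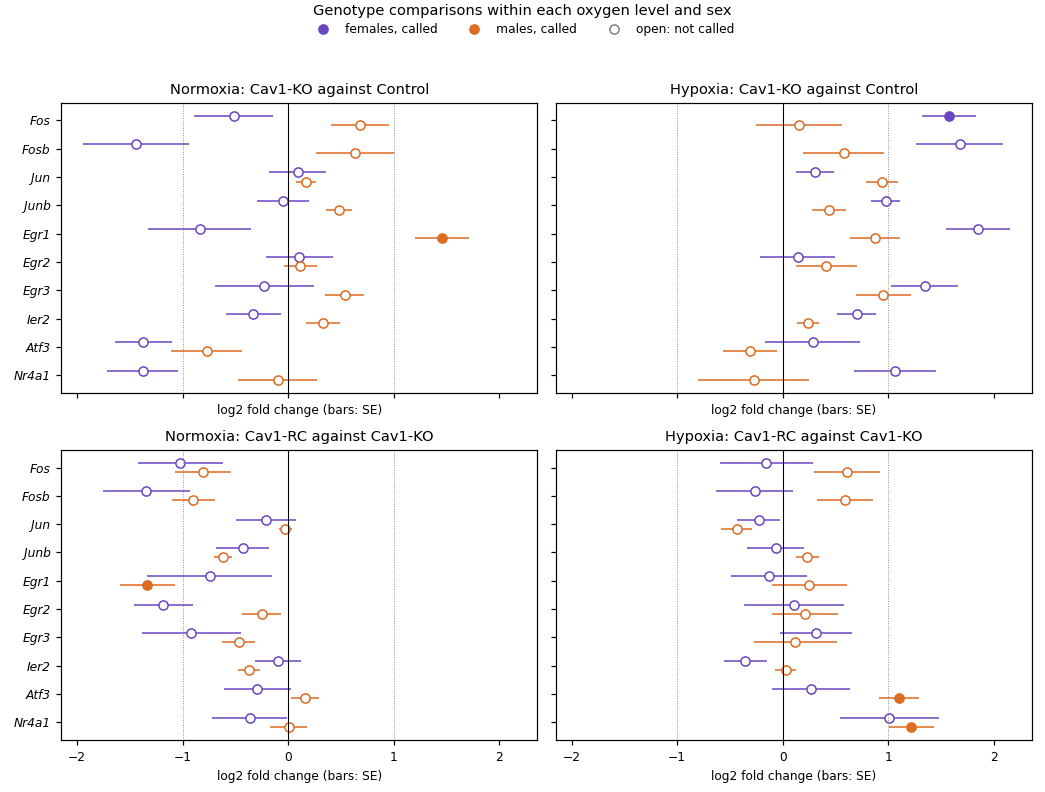
Log2 fold change of the 10 members between genotypes, Cav1-KO against Control and Cav1-RC against Cav1-KO, within each sex and oxygen level. Standard errors were derived from edgeR's F statistic. Egr1 is called higher at 1.46 in normoxic male Cav1-KO against Control and lower at -1.33 in Cav1-RC against Cav1-KO. Both values use the same Cav1-KO libraries and are not independent.

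The western blot list was tested as a term beside the 12 groups in all 34 libraries. Within the 3 groups that held libraries of both kinds, Egr1 of the listed library was above every other library of its group in 3 of 3, with 164 CPM against 74.9 and 98.7 in Female Control Normoxia, 27.6 against 13.0 and 12.5 in Female Control Hypoxia and 54.1 against 21.4 in Female Cav1-RC Normoxia. Junb and Ier2 were likewise above in 3 of 3, and Fosb, Egr2 and Atf3 below in 3 of 3. The share of all genes placed in this way was not counted, so these counts do not set the members apart. In edgeR's test of the term, 5 of the 10 members had an unadjusted p under 0.05, as did 52.4% of all genes. The term was 1.09 for Egr1 (SE 0.34, adjusted p = 0.0116), the 1 member called, where 13.5% of 19870 genes were called, 7.30% higher. Ier2 at 0.55 (SE 0.14, adjusted p = 0.00181), Jun at -0.43 (SE 0.14, adjusted p = 0.0143) and Atf3 at -0.89 (SE 0.29, adjusted p = 0.0132) passed the p threshold under the 2-fold limit. Without Female Control Hypoxia replicate 1, 0 members were called (12% of all genes), without Female Control Normoxia replicate 1 both Atf3 and Egr1 were (15.0%), and without either normoxic Female Cav1-RC library Fosb alone was (12.5%). Listed libraries also mostly had less of the cardiac markers, 109 to 544 CPM against 504 to 1327 CPM in the others. Club markers were mostly higher in listed libraries, with a median of 54569 CPM (34308 to 76328) against 23865 CPM (14587 to 48826) in the others. Whether tissue handling differed between listed and other mice is not stated in the sources used here.

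Further genes of the pathway were read from lists. Of 41 other immediate early genes 40 were tested, and in male Cav1-RC lungs hypoxia went with higher Ptgs2, which makes prostaglandins (log2 fold change 1.09, adjusted p = 0.0167), and Apold1, an endothelial early gene (1.13, adjusted p = 0.0444). Nr4a3, a close relative of Nr4a1, was lower (-2.0, adjusted p = 0.00544). Of the 40, 2 were called higher there and 1 lower, where 2.27% of all genes were called. The median of the list was 0.29 beside 0.00 over all genes. In the other groups, hypoxia against normoxia gave 3 of the 40 higher and 1 lower in female Cav1-KO (13.3% of all genes called), 7 higher in male Cav1-KO (17.7% of all genes), and 1 higher and 3 lower in male Control (6.36% of all genes), with 0 in female Control and female Cav1-RC. In both Cav1-KO comparisons the share of the list called in either direction was thus no higher than that of all genes. Shares called higher alone were not compared. The median of the list was 0.46 in female and 0.49 in male Cav1-KO, beside 0.02 and 0.01 over all genes. Cebpd, a bZIP factor of the acute phase, was higher in both Cav1-KO sexes, at 1.17 (adjusted p = 0.0283) in females and 1.5 (adjusted p = 2.7e-05) in males. Klf2, a flow-responsive endothelial factor, was higher at 1.04 (adjusted p = 0.0237) in females and 1.29 (adjusted p = 5.6e-05) in males. Nr4a3 was lower at -1.69 (adjusted p = 0.0212) in female Cav1-KO and -1.90 (adjusted p = 0.0232) in male Control. Between genotypes, Npas4 was lower in normoxic male Cav1-KO than Control (-1.64, adjusted p = 0.0312), where 5.0% of all genes were called. Nr4a3 was higher in normoxic male Cav1-RC than Cav1-KO (1.12, adjusted p = 0.00964), where 3.59% of all genes were called. Hypoxic Cav1-RC had 3 genes lower than Cav1-KO in each sex, Gadd45g among them, where 8.98% of all genes in females and 14.8% in males were called. The list term had 2 of the 40 higher and 6 lower, where 13.5% of all genes were called.

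Another list held 16 feedback genes, which shut the response off again. Dusp1, a phosphatase that inactivates MAP kinases, was higher with hypoxia in male Cav1-RC (1.14, adjusted p = 0.0143). It was the 1 gene of the list called there, where 2.27% of all genes were called, 1.42% higher. Dusp4, another such phosphatase, was lower with hypoxia in the 3 groups whose hypoxic libraries were all listed and whose normoxic ones were not, at -1.98 (adjusted p = 0.000823) in female Cav1-KO, -2.23 (adjusted p = 0.000155) in male Cav1-KO and -1.90 (adjusted p = 0.0195) in male Control. Zfp36l2, an mRNA-decay factor, was lower in the same comparisons, at -1.40, -1.49 and -1.13. In these comparisons 13.3%, 17.7% and 6.36% of all genes were called. The list term itself was -1.67 for Dusp4 (adjusted p = 2.5e-05) and -1.10 for Zfp36l2 (adjusted p = 1e-06), where 13.5% of all genes were called. Cav1-RC against Cav1-KO in hypoxia gave 3 of the 16 higher in each sex, where 8.98% of all genes in females and 14.8% in males were called. Cav1-KO against Control in normoxic males gave Dusp2 lower (-1.10, adjusted p = 0.0267), where 5.0% of all genes were called.

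Of 25 upstream kinases and factors, among them Srf, Elk1 and Creb1, the calls with hypoxia against normoxia were Mapk14 lower in female Cav1-KO (-1.10, adjusted p = 0.000704) and Elk4 higher in male Cav1-KO (1.01, adjusted p = 0.000245). In these comparisons 13.3% and 17.7% of all genes were called. Of 14 bZIP partners, the calls were Atf4 lower (-1.03, adjusted p = 0.00776) and Batf2 higher (1.13, adjusted p = 0.0267) in hypoxic female Cav1-RC against Cav1-KO, where 8.98% of all genes were called. Atf7 was called lower with hypoxia in male Cav1-KO (-1.03, adjusted p = 5.2e-05), where 17.7% were. None of either list was called in male Cav1-RC hypoxia against normoxia. Of 14 heat shock genes, which report protein stress, 3 were called lower there and 0 higher, where 2.27% of all genes were called, namely Hsph1 (-1.13, adjusted p = 0.0103), Hspa1b (-1.95, adjusted p = 0.0341) and Hspa1a (-1.67, adjusted p = 0.0492), and the median of the 14 was -0.44. Hspa1a and Hspa1b are near-identical copies whose reads may be split. In male Cav1-KO, hypoxia gave 3 heat shock genes higher (17.7% of all genes called), led by Hsph1 (1.86, adjusted p = 0.00056). In female Cav1-KO it gave Hspe1 alone (1.09, adjusted p = 0.0056), where 13.3% of all genes were called. Cav1-RC against Cav1-KO gave 4 of the 14 lower in hypoxic males (14.8% of all genes called), 2 lower in hypoxic females (8.98%) and 3 higher in normoxic males (3.59%).

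Deviations of the members from their group means were compared across libraries. After group means were removed from log2 CPM, Pearson's r over the 34 libraries was between -0.30 for Fos with Jun and 0.75 for Fos with Egr1, with a median of 0.23 over the 45 pairs, 36 pairs above 0 and 7 above 0.5. Jun had negative values with Fos, Junb, Egr1, Ier2 and Nr4a1. In the 22 libraries that were not on the list, r was between 0.02 and 0.91, the highest for Ier2 with Nr4a1, with a median of 0.50 and all 45 pairs above 0. These values are descriptions over libraries that share depth scaling. Female Cav1-RC Hypoxia replicates 1 and 2, for example, were both above replicate 3 for Fos, Egr1 and Nr4a1.

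**Figure D5:**
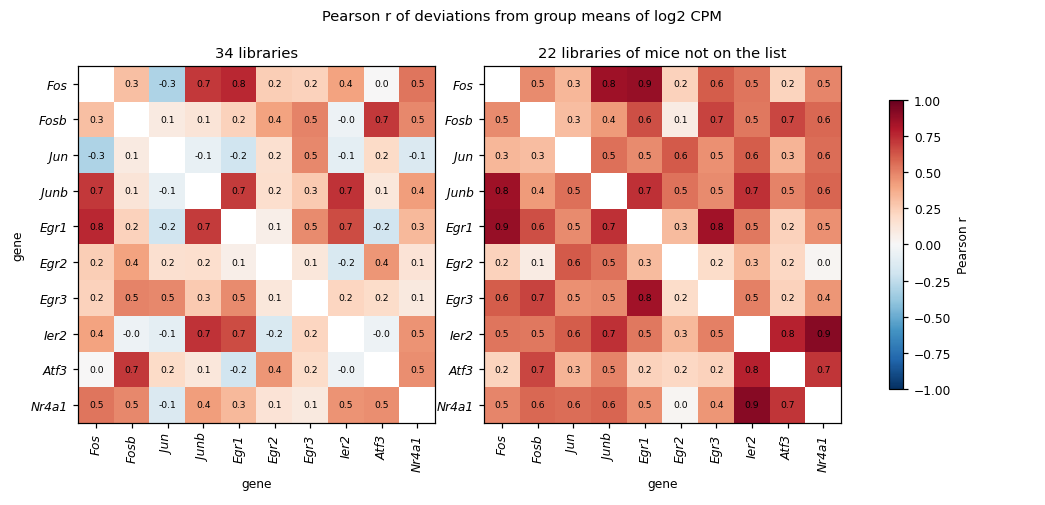
Pearson's r of log2 CPM after removing group means, for each pair of the 10 members, in the 34 libraries and in the 22 not on the western blot list. The median over the 45 pairs is 0.23 in all libraries and 0.50 in those off the list.

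Outside the members, the genes whose within-group deviations were most like the mean of the members, among 19860 genes over the 34 libraries, were led by Zfp36 (r = 0.77), an mRNA-decay factor, and Btg2 (r = 0.72), an antiproliferative early gene. Mppe1 (r = 0.66), Htr2b (r = 0.65), a serotonin receptor, and the phosphatase gene Dusp1 (r = 0.64) followed. Lif, Phlda1, Fhl4, Dcst2 and Gm3086 made up the 10, with r from 0.62 to 0.63, and the last 3 of these had a median under 1 CPM. Zfp36 and Btg2 also passed the p threshold with hypoxia in male Cav1-RC lungs below the 2-fold limit, at 0.72 and 0.54.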

How the data were processed

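Whole-lung RNA was enriched for poly-A transcripts, made into directional libraries and sequenced in pairs. Per the labels and the study's methods, the authors mapped reads to mm10 with HISAT2 2.0.5 and deposited counts per gene from featureCounts 1.5.0-p3 at default settings, which do not use strand unless told to. The deposited FPKM values are those counts scaled by the authors to gene length and library size, and they were used only to compare levels between genes. Groups came from the labels. The members and gene lists were chosen with earlier results of these data known. All 10 members were tested in every comparison, and those not named with a value there are covered by counts. Also named were up to 4 called genes of a list per comparison and the 10 genes most like the members.

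Counts were tested with edgeR 4.0.16 (R 4.3.3, TMM scaling, filterByExpr, quasi-likelihood test, Benjamini-Hochberg adjustment over all genes tested) on the libraries of the groups compared, 14 pairs of groups and 5 sex differences. Calls needed both a fold change past 1 on the log2 scale, in either direction, and an adjusted p under 0.05, and sex differences at an adjusted p under 0.05 alone. Fold changes carry edgeR's prior count. A term for the western blot list was fitted over 34 libraries. DESeq2 1.42.0 (the study's methods name an earlier version), its size factors, no low-count filter, a replicate block, 1 fit over 34 libraries, the list term, and leaving out libraries were alternatives. The scripts were tested on simulated data. Libraries held 12425535 to 33343006 counts, and 1 of the 35 libraries was labelled as of uncertain identity and was left out of comparisons. Promoters came from RefSeq on GRCm38.p6.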

Additional observations from a re-analysis of the deposited data

Results flagged for a closer look

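Fos and Egr1 had opposite differences between hypoxia and normoxia in the Control mice of each sex, with no overlap between the libraries compared. In females every hypoxic library was below every normoxic one, with a log2 fold change of -1.66 for Fos and -2.71 for Egr1. In males every hypoxic library was above every normoxic one, with 1.21 for Fos and 0.92 for Egr1. The difference between the sexes was tested as an interaction in edgeR and was not called for either gene (adjusted p = 0.13 for both). These were the only cases among 70 pairs of a member and a contrast that were checked. No group had 4 or more libraries, so no library could be tested as apart from its group. All male hypoxic Control libraries and none of the male normoxic ones were on the western blot list, and with a term for the list the male Egr1 difference had the opposite sign (-0.15, adjusted p = 0.902 in edgeR). Male Control Hypoxia replicate 2 carried female sex genes, and without it the interaction was called for both genes.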

How the results depend on the processing

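Alternatives were compared with the counts of members called in 20 comparisons and with 50 log2 fold changes. Of 781 refitted log2 fold changes 3 changed sign, all in 1 fit over 34 libraries with the western blot list term: Egr1 in male Control at -0.15 (adjusted p = 0.902), Ier2 in female Cav1-KO at -0.066 (adjusted p = 0.944) and Ier2 in male Cav1-KO at -0.19 (adjusted p = 0.772), each for hypoxia against normoxia. The cause was not tested.

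For hypoxia against normoxia, the members called in Female Control (0) became, with the share of all genes called, 5 (0.760%) in 1 fit over 34 libraries, 6 (2.88%) with the list term, 6 (0.613%) by DESeq2, 5 (0.112%) with no low-count filter, 4 (0.169%) with the replicate block and 6 (8.47%) without both listed libraries. Female Cav1-RC (0) became 2 (1.31%) with no filter and 2 (1.24%) with the block. Male Control (1) became 0 (1.71%) with the list term and 0 (4.76%) with the block. Male Cav1-RC (5) became 1 (0.317%) in 1 fit, 2 (0.805%) with the list term and 3 (0.211%) without the libraries whose sex genes went against the label. The sex difference in Control (0) became 3 (0.277%) in 1 fit, 1 (0.00503%) with the list term, 4 (0.323%) by DESeq2, 3 (0.0270%) with no filter, 1 (0.00539%) with the block and 2 (0.376%) without those libraries, and that in Cav1-RC (0) became 1 (1.17%) with no filter.

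For Cav1-KO against Control, normoxic females (0) became 1 (1.93%) with the list term, 2 (3.13%) by DESeq2, 3 (2.42%) with no filter and 2 (5.48%) with the block. Hypoxic females (1) became 4 (9.42%) in 1 fit, 2 (2.17%) with the list term, 4 (8.14%) by DESeq2, 3 (3.30%) with no filter, 0 (0.153%) with the block and 2 (0.780%) with DESeq2's size factors, and normoxic males (1) became 0 (3.26%) in 1 fit. For Cav1-RC against Cav1-KO, normoxic females (0) became 3 (3.20%) with no filter, normoxic males (1) became 0 (1.37%) in 1 fit, 0 (1.81%) with the list term and 2 (3.82%) without the libraries whose sex genes went against the label, and hypoxic males (2) became 1 (13.0%) in 1 fit and 0 (2.19%) with the list term. The list term (1) became 0 (13.0%) with the block. The cause was not tested in any of these.

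Leaving out 1 library at a time moved 25 of 170 counts by more than 1.5 times. The range for hypoxia against normoxia was 0 to 1 in female Cav1-KO, 0 to 1 in male Control and 3 to 5 in male Cav1-RC, and 0 to 6 for the sex difference in Control. For Cav1-KO against Control it was 0 to 2 in normoxic females, 0 to 5 in hypoxic females, 0 to 2 in normoxic males, 0 to 1 in hypoxic males and 0 to 2 for the sex difference in hypoxia. For Cav1-RC against Cav1-KO it was 0 to 2 in normoxic females, 0 to 1 in hypoxic females and 1 to 3 in normoxic males, and 0 to 2 for the list term. The median co-variation was 0.23 in 34 libraries, 0.50 in 22, and 0.12 to 0.30 leaving out 1 library.

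Replicate numbers did not pair the libraries: in 0 of 14 comparisons was every pair's correlation above 0.1 (38 pairs, -0.15 to 0.42), so the block values above rest on a shared number only. Egr2, Egr3 and Fosb had the fewest counts, 34 to 577 per library.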

Other observations

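The library labelled as of uncertain identity entered no comparison. Of the 10 members, 9 lay within the range of the 34 grouped libraries, among them Fos at 21.3 CPM, Egr1 at 61.9 CPM and Nr4a1 at 52.2 CPM. Egr2, at 3.56 CPM, was below the lowest grouped library, which had 3.97 CPM. Ier2, at 152 CPM, was the 2nd highest of 35. The number in the name of this library matched a mouse on the western blot list.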
